A study of Mus musculus with 12 samples.

Results

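A set of 10 imprinted genes with known roles in growth was followed through 12 poly(A) RNA sequencing libraries of neonatal mouse muscle fibroblasts, of 28995 genes with reads in all. The members were H19, Meg3, Igf2, Igf2r, Grb10, Mest, Dlk1, Plagl1, Peg3 and Ndn. They were chosen by symbol from a list of imprinted growth genes that leaves out Cdkn1c, with no measured value in the rule, 10 of 10 were found in every deposited table, and 10 of 10 had a mean of at least 10 normalized counts. All libraries came from wild-type C57 BL/10 mice aged 3 days, whose hindlimb muscle fibroblasts were pooled per mouse and plated again for treatment at passage 2. All groups were kept in charcoal-stripped serum, which is depleted of steroids, from the day before treatment. Cells then received 1 µM aldosterone, an agonist of the mineralocorticoid receptor, 1 µM spironolactone, an antagonist of that receptor, or the DMSO vehicle alone for 48 hours, and each treatment had 4 libraries. Cells came from 2 mice, with 2 plates of each mouse per treatment. The labels number the libraries in 2 ways, by sample and by biological replicate, and do not say which of these is the mouse. Libraries with the same sample number deviated together, so values below are given by sample number. Where a treatment test does not take the sample number into account, its p-value rests on a spread that includes the difference between sample numbers. The other p-values measure only the spread between these plates. With 2 mice, nothing here measures how far mice differ in general.

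Imprinted genes are transcribed mainly from the allele inherited from a single parent, and many of them act on the growth of the embryo and newborn. Their levels normally fall in many organs after birth, so they are high in neonatal tissues. Several lie side by side in domains under a shared imprinting control region: H19 with Igf2, Dlk1 with Meg3, Igf2r with the antisense RNA Airn, and Peg3 with Zim1 and Usp29. The counts do not separate the parental alleles, so they give the total RNA of each gene only, and in RNA of whole cultures fewer cells of a type and less RNA per cell cannot be told apart.

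The members fall into 3 groups by role. Non-coding RNAs were H19, which is expressed from the maternal allele and is a precursor of a microRNA, and Meg3, the maternally expressed RNA of the Dlk1 domain. Growth ligands, receptors and adaptors were Igf2, the fetal insulin-like growth factor, Igf2r, the receptor that carries this ligand to the lysosome, Grb10, an adaptor that dampens insulin and IGF1 receptor signalling, Mest, a protein with a hydrolase fold, and Dlk1, a membrane-bound and shed relative of the Notch ligands. Nuclear regulators were Plagl1, a zinc finger factor known to act on other imprinted genes, Peg3, a further zinc finger protein, and Ndn, a MAGE family protein linked to growth arrest.

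Sequencing depth was 19136923 to 30219185 reads on genes per library (median 23833380 over 12 libraries). Fibroblast markers were abundant, with a summed normalized count of 833171 to 1138240 over 8 genes, mostly Col1a1 and Col1a2. The defining myogenic markers Pax7, Myf5, Myod1 and Myog had mean values of 0 to 2.72 in every treatment group. In the rest of the 10-gene myogenic list, group means were 239 to 578 for Acta1, the skeletal muscle actin, and 75.6 to 103 for Des, the muscle filament desmin. They were 4.37 to 11.5 for Myh3, Chrna1 and Cdh15 and 1.15 to 1.53 for Myh8. Fkbp5, Tsc22d3, Per1 and Zbtb16, known targets of steroid receptors, were all called higher with aldosterone than with vehicle, by 1.83 to 6.67 on the log2 scale. The median log2 difference over all genes was between -0.01 and 0.00 in each comparison.

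Levels of the members were compared per length, as reads scaled by gene length and by the reads of the library (RPKM, means over 12 libraries with SD). H19 was highest at 522 ± 132, and ranked 43rd among all genes with a read. Mest followed at 202 ± 64.0, Grb10 at 100.2 ± 2.9 and Igf2r at 55.7 ± 9.3. Meg3 stood at 51.3 ± 8.4, Ndn at 45.2 ± 3.4 and Plagl1 at 28.8 ± 5.9. Dlk1 reached 16.3 ± 3.5, Peg3 15.8 ± 6.6 and Igf2 only 2.14 ± 0.80. The first 3 genes in this order did not overlap with each other or with the genes below in any library. Igf2r, Meg3 and Ndn overlapped as neighbours, and Igf2r was above Meg3 in 9 of 12 libraries, as was Meg3 above Ndn. Dlk1 and Peg3 also overlapped, with Dlk1 higher in 8 of 12 libraries, while Igf2 lay below Peg3 in 12 of 12. Lengths were the gene lengths in the deposited tables, so a gene read mainly as a short isoform is placed too low. The ligand Igf2 was thus the rarest member, and its receptor Igf2r was 15.1 to 49.3 times as abundant per length within a library.

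**Figure D1:**
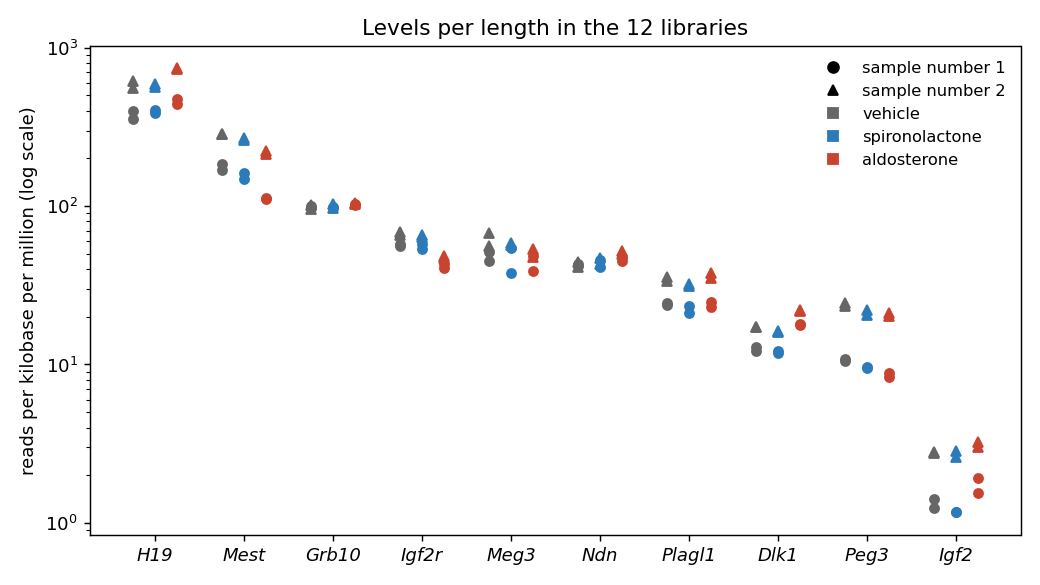
Reads scaled by gene length and library (RPKM) of the 10 members in each of the 12 libraries, on a log axis, ordered by mean; circles are sample number 1, triangles sample number 2, and colours mark the treatment. The spread within a gene is widest for Peg3 and Igf2, where the triangles stand above the circles, and narrowest for Grb10.

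Start-site windows were taken from RefSeq (build GRCm38.p6) for 9 of 10 members, 16 windows of 300 bases that run from 250 bases before to 50 bases after an annotated start; no window was at hand for H19. The windows of 4 members are printed, because Igf2r, Dlk1 and Ndn are the members called with aldosterone and Peg3 is the member with the largest difference between sample numbers. Capitals mark CG dinucleotides, at which mammalian DNA is methylated, and in the Peg3 window also the palindrome GGGGCCCC. The Peg3 window lies at chr7:6730370-6730669 on the minus strand, the Dlk1 window at chr12:109452573-109452872 on the plus strand, the Igf2r window at chr17:12769657-12769956 on the minus strand and the Ndn window at chr7:62348027-62348326 on the plus strand.
Peg3: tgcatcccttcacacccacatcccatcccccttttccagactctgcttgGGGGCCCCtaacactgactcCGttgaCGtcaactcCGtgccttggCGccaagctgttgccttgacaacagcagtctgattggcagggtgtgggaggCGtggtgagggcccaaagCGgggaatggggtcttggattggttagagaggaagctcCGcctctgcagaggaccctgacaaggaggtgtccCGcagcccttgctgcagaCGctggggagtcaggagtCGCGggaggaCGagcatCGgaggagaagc
Dlk1: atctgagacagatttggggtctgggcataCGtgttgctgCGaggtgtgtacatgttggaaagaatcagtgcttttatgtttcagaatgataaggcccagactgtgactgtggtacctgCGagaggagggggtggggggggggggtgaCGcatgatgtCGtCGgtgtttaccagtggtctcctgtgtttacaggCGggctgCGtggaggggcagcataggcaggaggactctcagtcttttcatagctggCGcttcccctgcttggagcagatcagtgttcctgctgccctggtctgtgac
Igf2r: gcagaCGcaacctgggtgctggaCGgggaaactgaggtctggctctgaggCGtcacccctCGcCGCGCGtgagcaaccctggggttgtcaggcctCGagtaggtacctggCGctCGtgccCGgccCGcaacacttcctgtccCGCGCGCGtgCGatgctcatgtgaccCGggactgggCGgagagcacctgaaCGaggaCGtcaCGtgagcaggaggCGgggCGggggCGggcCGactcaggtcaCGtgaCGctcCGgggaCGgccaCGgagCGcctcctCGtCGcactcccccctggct
Ndn: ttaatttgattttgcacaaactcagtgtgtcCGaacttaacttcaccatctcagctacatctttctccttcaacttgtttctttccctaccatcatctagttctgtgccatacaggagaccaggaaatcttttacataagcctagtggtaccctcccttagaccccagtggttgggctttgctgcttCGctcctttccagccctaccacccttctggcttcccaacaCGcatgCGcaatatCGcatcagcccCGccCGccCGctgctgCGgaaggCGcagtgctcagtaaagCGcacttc

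The Igf2r window held 34 CG, more than 92.3% of all 32851 windows in the table, and the Peg3, Dlk1 and Ndn windows held 13, 9 and 11 CG against a median of 7 over all windows. The first Grb10 window had 45 CG. The palindromic steroid receptor element, AGAACA and then TGTTCT after any 3 bases, was found in 0 of the 16 members' windows and in 0.00913% of all windows. Its half-site AGAACA, which the full element contains, was in 1 of 16 windows, the first of Igf2, and in 19% of all windows. GGGGCCCC, a palindrome that the Plagl1 protein is known to bind, was in 1 of 16 windows, that of Peg3, and in 1.08% of all windows. All 3 motifs were searched on both strands. The same match stood in the window of Usp29, which starts on the opposite strand and shares 263 bases with that of Peg3. A match is a description of these letters only, and the absence of one says nothing of sites outside the windows.

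Of the members, 4 also hold microRNAs within their RefSeq spans, with 9 mature sequences and 9 different seeds (bases 2 to 8). Those of H19 and Mest, the most abundant members per length, are given with the seed in capitals.
miR-675-5p, in H19: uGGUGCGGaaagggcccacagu
miR-675-3p, in H19: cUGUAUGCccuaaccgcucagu
miR-335-5p, in Mest: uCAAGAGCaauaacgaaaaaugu
miR-335-3p, in Mest: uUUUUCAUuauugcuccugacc

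Mature microRNAs are not captured by poly(A) selection, and the levels of these 4 were not measured here. The row for the Mir335 hairpin had a mean normalized count of 3.06 against 19114 for Mest.

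To ask whether aldosterone changes the growth network, normalized counts were compared between aldosterone and vehicle with limma on log2(normalized count + 1), over all 27319 genes of that table. A gene was called where its adjusted p did not exceed 0.05. By this rule 3 of 10 members were called, against a background of 10.4% of all genes. Dlk1 and Ndn were higher (background 5.68%) and Igf2r was lower (background 4.74%). Each member had a mean of at least 10 normalized counts. With only such genes in the fit, limma called 3033 of 15245 genes and the same 3 members. The other backgrounds given here include genes below that mean. At an unadjusted p under 0.05 there were 4 of 10 members, against 20.9% of all genes. No member passed with a 2-fold change as well, against a background of 2.06%. With the sample number as a block 8 of 10 were called, against a background of 16.7%. Of these 4 were higher (H19, Igf2, Dlk1 and Ndn, background 8.68%) and 4 lower (Igf2r, Mest, Peg3 and Meg3, background 8.02%). The members' median log2 difference was 0.09, beside -0.01 for all genes, and the 10 did not share a direction. In 8 of 10 members the aldosterone and vehicle libraries did not overlap within either sample number, against a background of 22.1%. In 4 of 10 they did not overlap over all 8 libraries, against 14.5%.

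Igf2r, at chr17:12901293-12988551 on the minus strand (positions in the deposited tables, mm39 per the processing notes), was the member with the smallest p. Its normalized counts, given here and below with the 2 libraries of sample number 1 before the 2 of sample number 2, were 12633, 12817, 14394 and 15171 with vehicle, 12858, 12047, 14416 and 13921 with spironolactone, and 10017, 9432, 11000.2 and 10542 with aldosterone. Every aldosterone library lay below every library of the other treatments. Igf2r fell by 0.42 ± 0.07 (SE) on the log2 scale against vehicle, to 0.746 of its level (limma, adjusted p = 0.000521, n = 4 against 4). The fall was 0.39 within sample number 1 and 0.46 within sample number 2. An exact two-sided permutation test over the 8 libraries gave p = 0.0286, the smallest that 4 against 4 allows.

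Dlk1 lies at chr12:109418749-109429262 on the plus strand in the same tables. It had 1777, 1649.8, 2315 and 2303 normalized counts with vehicle, 1598, 1661, 2169 and 2121 with spironolactone, and 2517, 2536, 3029.9 and 2964 with aldosterone. The lowest aldosterone library was above the highest vehicle library. Dlk1 rose 1.38-fold against vehicle (log2 difference 0.47 ± 0.10 SE, limma, adjusted p = 0.00595, n = 4 against 4). It was 0.56 higher within sample number 1 and 0.38 within sample number 2 on the log2 scale.

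Meg3 shares a domain with Dlk1 and was not called higher. Its normalized counts were 20831, 23321, 25319 and 30247 with vehicle, 24599, 17373, 25532 and 26416 with spironolactone, and 23074, 18509, 24858 and 21829 with aldosterone. The groups overlapped. The log2 difference from vehicle was -0.17 ± 0.10 (SE; limma, adjusted p = 0.395), and the adjusted p was 0.0431 with the sample number as a block by limma and 0.0634 by edgeR with the same block. The ratio of Dlk1 to Meg3, both per length, was 0.238 to 0.308 in the vehicle libraries, 0.219 to 0.322 in the spironolactone libraries and 0.368 to 0.462 in the aldosterone libraries. The 4 aldosterone ratios were above all 8 others.

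Ndn, at chr7:61996317-62000010 on the plus strand, had 3879, 3717, 3888 and 3605 normalized counts with vehicle, 3641, 4085, 3764 and 4068 with spironolactone, and 4181, 4379, 4445 and 4624 with aldosterone. Again every aldosterone library was above all 8 others. Ndn rose 1.17-fold against vehicle (log2 difference 0.22 ± 0.05 SE, limma, adjusted p = 0.0111, n = 4 against 4). Grb10 showed a smaller difference of the same kind, with 22052, 21222, 20686 and 21671 normalized counts under vehicle, 21329, 21143, 20807 and 22002 under spironolactone and 23549, 23026, 22821 and 22727 under aldosterone. Its groups did not overlap, but its log2 difference of 0.10 ± 0.05 (SE) was not called (limma, adjusted p = 0.284). With the sample number as a block the adjusted p of Grb10 was 0.0535 by limma and 0.0374 by edgeR.

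For H19, Igf2, Mest, Peg3, Plagl1 and Meg3 the sample number took up more of the variance than treatment. H19 had 25428, 22251, 38178 and 34324 normalized counts with vehicle, 24119, 25576, 35091 and 36591 with spironolactone, and 29143, 31136, 46461 and 46750 with aldosterone. Within each sample number both aldosterone libraries were above both vehicle libraries. The log2 difference of H19 from vehicle was 0.35 ± 0.17 (SE; limma, adjusted p = 0.249) and was called with the sample number as a block (adjusted p = 3.13e-07). Igf2, on the same chromosome segment, had 197, 171, 374 and 377 normalized counts with vehicle, 160.3, 160.5, 353 and 381 with spironolactone, and 275, 219.5, 447 and 413 with aldosterone. Its log2 difference was 0.31 ± 0.25 (SE; limma, adjusted p = 0.565), and it too was called with the block (adjusted p = 0.0155). The ratio of H19 to Igf2 per length ran from 198 to 284 with vehicle and from 227 to 309 with aldosterone, which overlap.

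Mest and Peg3 stood on the other side. Mest had 17734, 15868, 26706 and 26469.5 normalized counts with vehicle, 13868 and 15397 with 24466 and 25017 under spironolactone, and 11027, 11088, 21469 and 20256 with aldosterone. Within either sample number, aldosterone gave the lowest pair of values. Its log2 difference was -0.48 ± 0.21 (SE; limma, adjusted p = 0.199), and with the block the adjusted p was 1.98e-09. Within sample number 1 the difference was -0.60 and within sample number 2 it was -0.35. Peg3 had 3502, 3525, 7524 and 7830.3 normalized counts with vehicle, 3143, 3121, 6639 and 7025 with spironolactone, and 3009, 2849, 6724 and 6872 with aldosterone. The log2 difference of Peg3 was -0.22 ± 0.30 (SE; limma, adjusted p = 0.733), and with the block the adjusted p was 0.000133.

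Plagl1 was the member with the least difference from vehicle. Its normalized counts were 4658, 4456, 6184 and 6551 with vehicle, 4371, 3968, 5766 and 5895 with spironolactone, and 4892, 4476, 7143 and 6592 with aldosterone. The log2 difference was 0.07 ± 0.14 (SE), called neither without nor with the block (limma, adjusted p = 0.83 and 0.318).

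**Figure D2:**
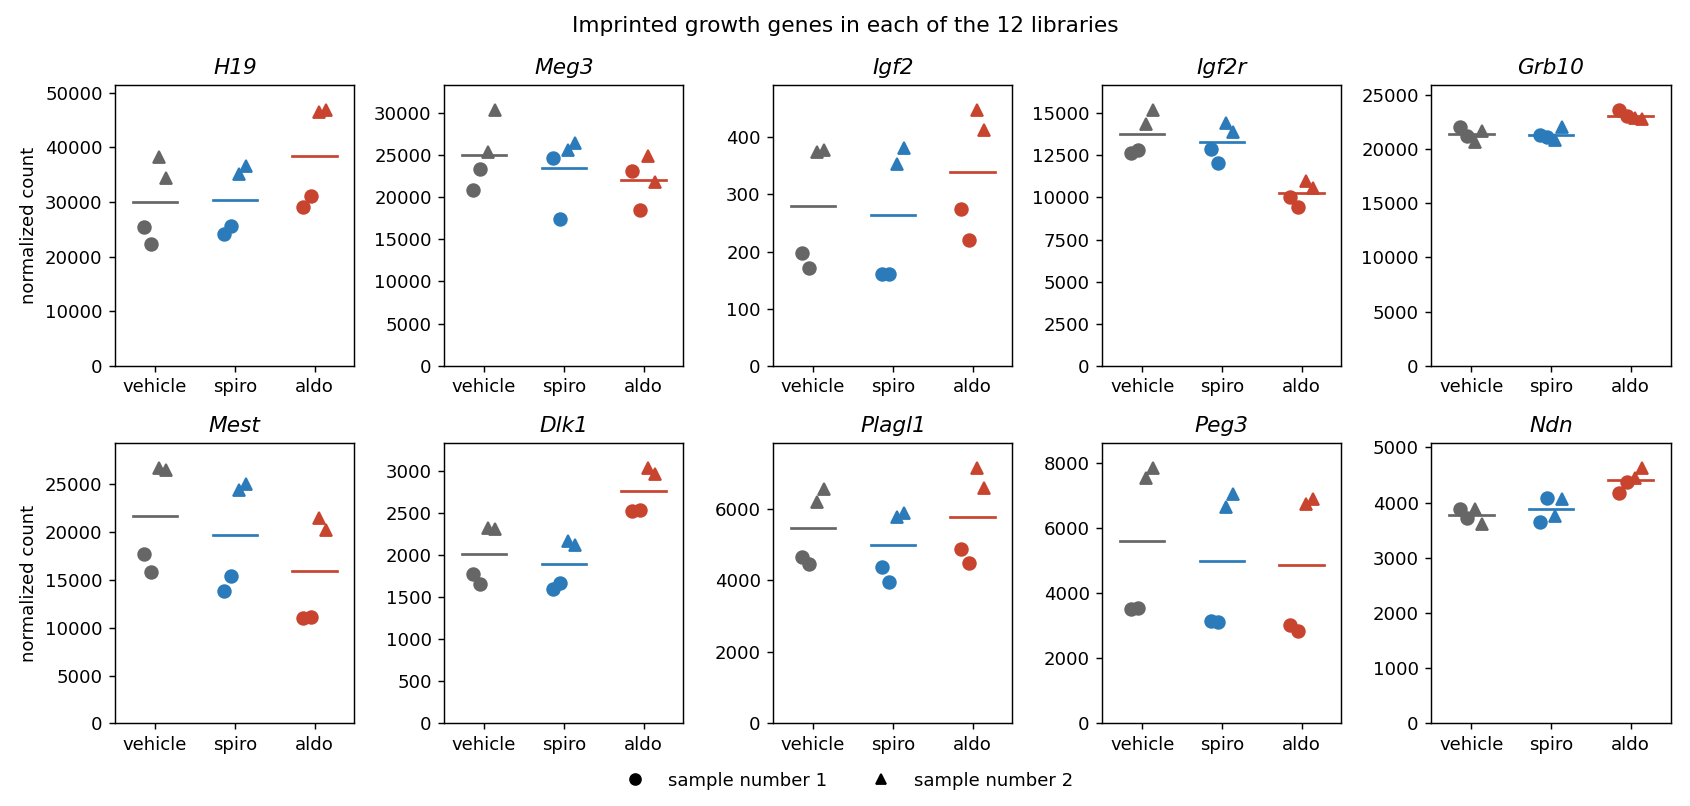
Normalized counts of each member by treatment (spiro, spironolactone; aldo, aldosterone), each point a library, with circles for sample number 1, triangles for sample number 2, and a line at the mean of 4 libraries; each vertical axis starts at 0. Igf2r, Dlk1, Grb10 and Ndn separate aldosterone from both other treatments, while H19, Igf2, Mest, Plagl1 and Peg3 separate first by sample number.

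The next comparison set aldosterone against spironolactone, which shares the aldosterone libraries with the comparison above and is no independent repeat of it. Called members were 2 of 10 (background 8.88%, with 4.93% higher and 3.96% lower), Dlk1 at 0.56 ± 0.10 (SE, log2; limma, adjusted p = 0.000681) and Igf2r at -0.38 ± 0.07 (SE; adjusted p = 0.00102). Ndn was 0.18 ± 0.06 (SE) higher with an adjusted p of 0.0596, which was 0.0456 without aldosterone replicate 1 and 0.0439 without spironolactone replicate 2, and edgeR and DESeq2 called it on all 8 libraries (adjusted p = 0.0423 and 0.0198). At a mean of at least 10 normalized counts limma called 2571 of 15300 genes, with Ndn among them (adjusted p = 0.0362). With the sample number as a block 7 of 10 were called (background 14.4%), H19, Igf2, Dlk1, Plagl1 and Ndn higher (7.58%) and Igf2r and Mest lower (6.8%). Plagl1 had a log2 difference of 0.20 here, with a blocked adjusted p of 0.00136. Peg3 differed by -0.05 and Meg3 by -0.08, neither of them called in either fit.

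Spironolactone against vehicle called 0 of 10 members by limma, and 0 of 10 had an unadjusted p under 0.05; edgeR and DESeq2 also called 0 of 10. The background was 0% of 27598 genes by limma, where 4.53% had an unadjusted p under 0.05. With the sample number as a block 1 member, Peg3, was called lower by 0.17 (adjusted p = 0.0456, background 0.351%, of which 0.123% lower). That call was lost by edgeR with the same block (adjusted p = 0.0573) and with the plates summed before the blocked fit (adjusted p = 0.126). Members' log2 differences ran from -0.17 for Peg3 to 0.04 for Ndn, with a median of -0.09.

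**Figure D3:**
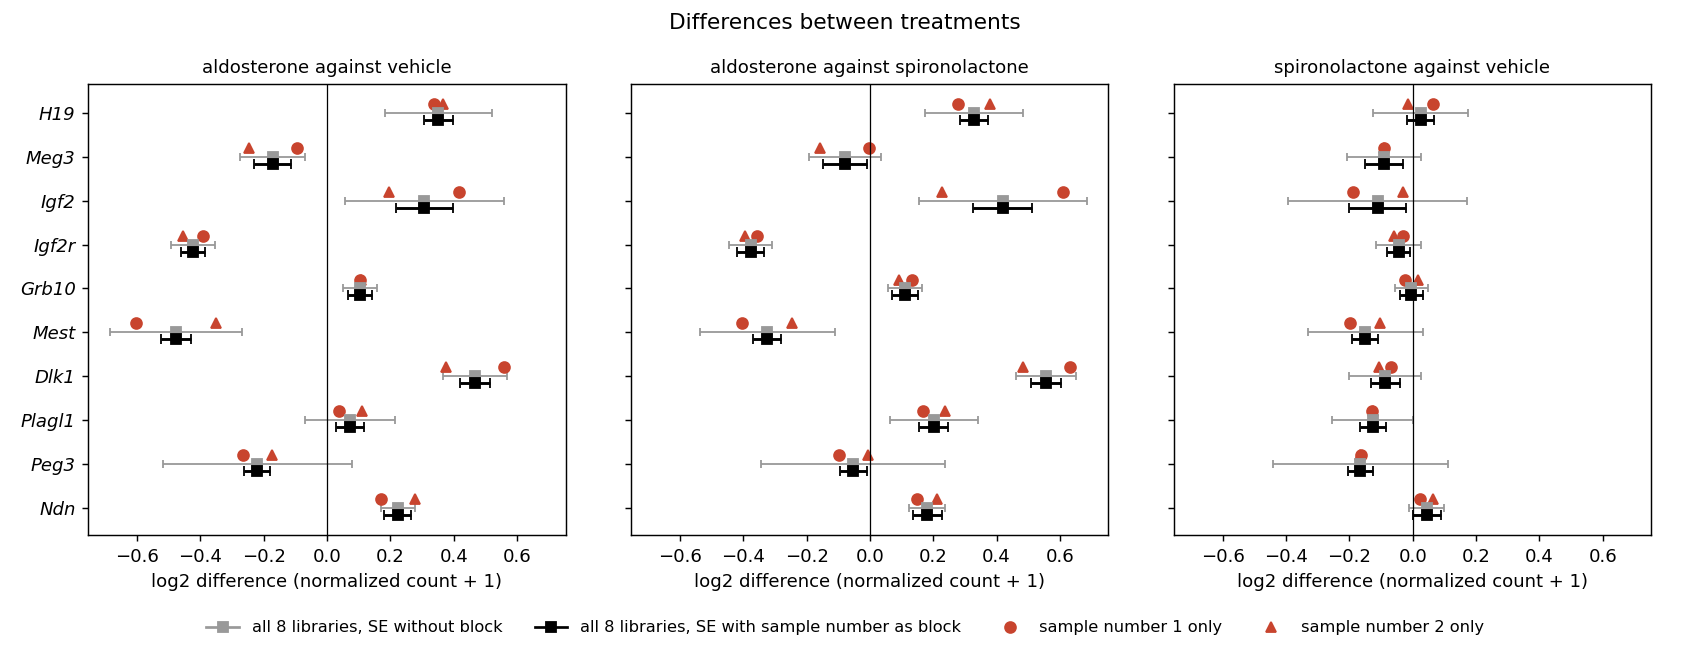
Log2 differences of the members in the 3 comparisons of treatments; squares are all 8 libraries with the SE without (grey) and with (black) the sample number as a block, and red marks are the differences within sample number 1 (circles) and 2 (triangles). Red marks of a gene lie on the same side of 0 for 10 of 10 members in both comparisons with aldosterone. With spironolactone against vehicle this holds for 8 of 10, and the share of all genes was not measured. Some marks lie close to 0 (against spironolactone, Peg3 -0.006 in sample number 2 and Meg3 -0.002 in sample number 1). With aldosterone against vehicle the grey SE of Peg3 is 0.30 where the black one is 0.04.

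Whether the response to aldosterone depends on the sample number was tested as an interaction in the 8 libraries of aldosterone and vehicle. No member of the 10 was called by limma or edgeR, with 2 at an unadjusted p under 0.05 (background 4.96%) and 0.0146% of all genes called. The members at an unadjusted p under 0.05 were Mest, whose difference from vehicle was 0.25 ± 0.08 (SE, log2) less negative in sample number 2 (limma, adjusted p = 0.895), and Dlk1, whose difference was smaller there by 0.18, with the same adjusted p.

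The sample numbers were compared next. In the 12 libraries, with treatment as a further factor, limma called 8 of 10 members higher in sample number 2 and 0 lower, against a background of 10.9% called in either direction and 5.07% called higher. With only genes at a mean of at least 10 normalized counts in the fit, 3542 of 15276 genes were called in either direction. The members' median log2 difference was 0.43, beside 0.00 for all genes. Of the 10, 2 passed with a 2-fold difference, Peg3 and Igf2, against 0.879% of all genes. Since a sample number may stand for 1 mouse, this compares cultures of possibly 2 animals, and the p-values measure the spread of their plates.

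Peg3, at chr7:6706891-6733430 on the minus strand, had the smallest p of all 28995 genes. It averaged 3191 ± 270.4 (SD, n = 6) normalized counts in sample number 1 and 7102 ± 474 in sample number 2, a 2.23-fold difference (log2 1.16 ± 0.03 SE, limma, adjusted p = 3.24e-19). Within treatments the log2 difference was 1.13 with vehicle, 1.21 with aldosterone and 1.12 with spironolactone. Sample number took up 97.1% of the variance of Peg3 on that scale and treatment 2.54%. Its domain partners went the same way. Zim1, a zinc finger gene beside Peg3, was at 400.5 to 519 normalized counts in sample number 1 and at 976 to 1200 in sample number 2, and Usp29, which starts on the opposite strand of the same window, at 6.83 to 19.5 and 26.6 to 34.8. Both were called (log2 differences 1.25 and 1.37, limma, adjusted p = 8.43e-17 and 0.000802).

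Igf2 averaged 197 ± 45 (SD, n = 6) normalized counts in sample number 1 and 391 ± 34 in sample number 2, a 2.01-fold difference (limma, adjusted p = 1.04e-10). Mest differed 1.72-fold, from 14164 ± 2704 to 24064 ± 2648 (adjusted p = 5.06e-14). H19 differed by 0.59 on the log2 scale, from 26276 ± 3283 to 39566 ± 5611 (adjusted p = 5.98e-12). For these genes, and for Peg3 and Plagl1, all 6 libraries of sample number 2 were above all 6 of sample number 1, which held for 1.49% of all genes. Plagl1, the zinc finger factor, differed 1.42-fold, from 4470.1 ± 308 to 6355 ± 511 (adjusted p = 3.48e-11).

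Smaller differences were called for Dlk1 (log2 0.36 ± 0.04 SE, limma, adjusted p = 6.06e-08), Meg3 (0.28 ± 0.06, adjusted p = 0.00378) and Igf2r (0.18 ± 0.03, adjusted p = 0.000138). Within every treatment both libraries of sample number 2 were above both of sample number 1 for 7 of 10 members, against 4.37% of all genes, and Meg3 was the called member for which this did not hold. Grb10 and Ndn were not called, with log2 differences of -0.02 ± 0.03 (adjusted p = 0.805) and 0.03 ± 0.04 (adjusted p = 0.73). These 2 had 76.4% and 74.1% of their variance with treatment and 2.21% and 1.55% with sample number. An exact two-sided permutation of sample numbers within treatments gave p = 0.00926, its smallest value, for 7 members, and 0.0278 for Meg3, 0.38 for Grb10 and 0.444 for Ndn.

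**Figure D4:**
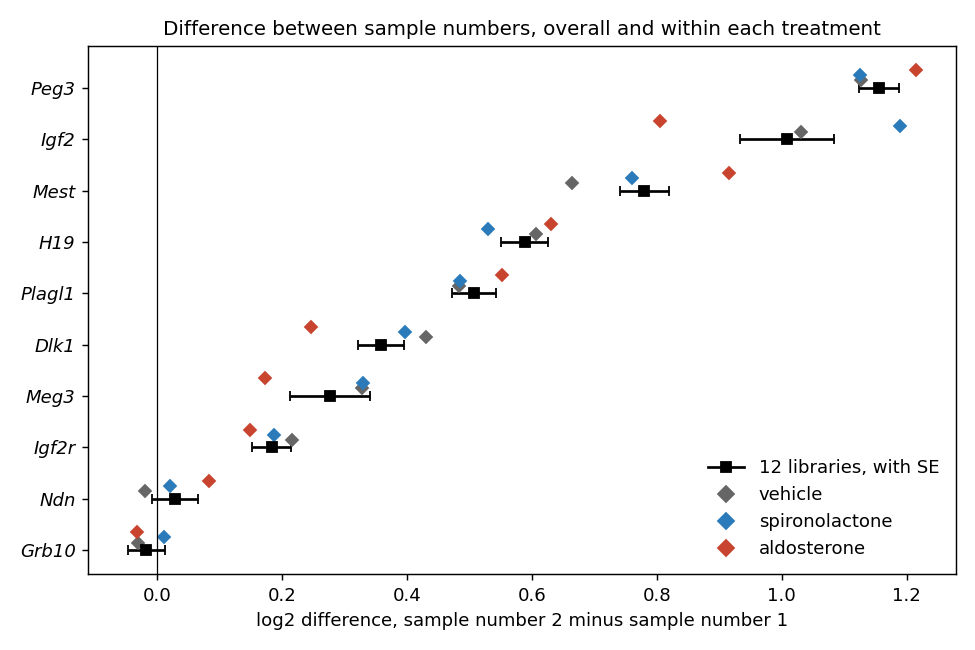
Log2 difference of each member between sample number 2 and sample number 1; black squares are the 12 libraries with treatment as a factor and their SE, and coloured diamonds are the differences within vehicle, spironolactone and aldosterone libraries. The order runs from Peg3 at 1.16 to Grb10 at -0.02, and the 3 diamonds of each of the top 8 genes are all above 0.

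Other genes moved with the sample number too. Summed normalized counts of 15 cartilage genes, a list chosen after their values were seen and so given with no test, were 85878 to 125331 in sample number 1 and 127716 to 178456 in sample number 2. By their log2 differences 13 of the 15 were higher in sample number 2 and 2 were lower. Col2a1 averaged 25764 and 54438 and Cnmd 494 and 1814, while Prg4 averaged 1959 and 1452 and Comp 29080 and 27206. Tendon markers summed to 41746 to 48097 in sample number 1 and 51321 to 54695 in sample number 2, with 2 of 4 called higher and 1 lower. Pericyte or smooth muscle markers went down, from 9809 to 12591 to a range of 7009 to 9755, with 4 of 5 called lower and 0 higher. Of 10 myogenic markers 3 were called lower and 0 higher, with Pax7 and Myf5 at mean values under 1 in both sample numbers. Adipocyte markers had 3 of 5 called higher and 1 lower, and macrophage markers 0 of 6 tested in either direction. Fibroblast markers had 4 of 8 called higher (Pdgfra, Col1a2, Dcn and Lum) and 2 lower (Pdgfrb and Thy1). Endothelial markers had 1 of 6 called lower, Kdr (-1.03), Schwann cell markers 1 of 5 called higher, Cdh19 (0.96), and cell cycle genes 1 of 8 called lower, Mcm5 (-0.26). Reads per library overlapped between the sample numbers. The part of cell make-up in the members' differences was not tested.

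With aldosterone, further lists moved beside the members. Cell cycle genes were called lower in 7 of 8 cases, with summed values of 8592 to 9914 against 13445 to 14084 with vehicle. The 15 cartilage genes summed to 120461 to 178456 against 87581 to 137991, and within each sample number these sums were higher with aldosterone. The sum is mostly Col2a1, Col11a1 and Comp, and by log2 difference 9 of the 15 were higher and 6 lower, with no test given (Comp 0.48 and Hapln1 0.68, but Acan -0.43 and Matn3 -0.98). Fibroblast markers summed to 833171 to 947064 against 1039300 to 1138240, a sum that is mostly Col1a1 and Col1a2. Of the 8, 1 was called higher (Pdgfra) and 1 lower (Col3a1), and 1 higher and 7 lower with the block. Myogenic markers summed to 228 to 465 against 539 to 807, a sum that is mostly Acta1 and Des, with 1 of 9 tested called lower, Acta1. Adipocyte markers summed to 422 to 562 against 263 to 365, a sum that is mostly Pparg. Endothelial markers summed to 701 to 777 against 486 to 548, mostly Tek and Kdr. Each of these 2 lists had 1 gene called higher (Plin1 and Kdr). By log2 difference 5 of 5 adipocyte markers and 5 of 6 endothelial markers were higher, and Pecam1 was lower. Pecam1, Cdh5, Emcn and Vwf had mean values of at most 15.4 with aldosterone and with vehicle. Macrophage markers summed to 147 to 191 against 125 to 143, with 1 of 5 tested called higher, Cd14 (0.69, adjusted p = 0.013 by limma), Ptprc and Adgre1 at mean values of at most 1.39 in each group, and C1qa and C1qb in none of the tables. Tendon markers summed to 41746 to 53220 against 45801 to 54695, a sum that is mostly Fmod, and 2 of 4 were called lower, Scx (-0.76) and Tnmd (-0.25). Schwann cell markers summed to 130 to 157 against 73.8 to 146 and pericyte or smooth muscle markers to 7009 to 11319 against 8839 to 12416, with 0 of 5 called in each list. The part of these lists in the members' differences was not tested.

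**Figure D5:**
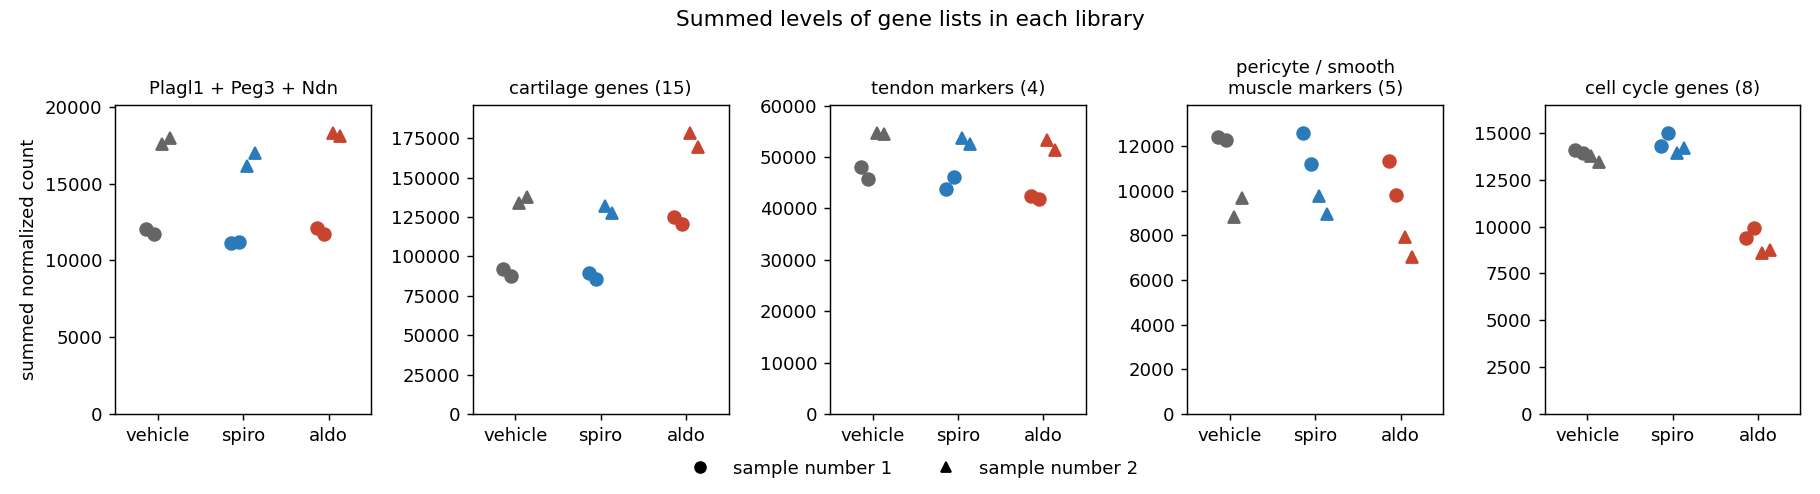
Summed normalized counts of the nuclear regulators Plagl1, Peg3 and Ndn, of 15 cartilage genes, 4 tendon markers, 5 pericyte or smooth muscle markers and 8 cell cycle genes in each library, by treatment (spiro, spironolactone; aldo, aldosterone) and sample number (circles 1, triangles 2). Within each treatment the sums of the nuclear regulators, the cartilage genes and the tendon markers are higher in the triangles, and those of the pericyte or smooth muscle markers and the cell cycle genes are lower there; the cell cycle sums also lie at 8592 to 9914 with aldosterone and at 13445 to 14999 in the other 8 libraries.

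The list of domain partners held 35 genes, of which 29 were tested against vehicle. It includes genes of the Cdkn1c domain, which lies beside that of H19 and Igf2 and holds no member. The median log2 difference with aldosterone was -0.13 beside -0.01 for all genes. With the block 6 were called higher and 8 lower, against 8.68% and 8.02% of all genes. Without it 5 were called higher and 2 lower, against 5.68% and 4.74%. Those called higher were Cdkn1c (2.64, an inhibitor of cyclin-dependent kinases), Ddc (1.16), Dio3 (0.99, an enzyme that inactivates thyroid hormone), Atp10a (0.75) and Snhg14 (0.49), all as log2 differences. Cdkn1c went from 646 to 1423 normalized counts with vehicle to 5775 to 6185 with aldosterone. Airn (-0.59, adjusted p = 0.0372 by limma) and Cobl (-0.50, adjusted p = 0.0104) were lower. Airn is the antisense RNA that overlaps Igf2r, with a mean normalized count of 188 against 12437 for Igf2r. Airn and Igf2r were both lower with aldosterone. The library protocol names both a directional and a non-directional preparation, so reads of Airn and Igf2r, or of Mest and Copg2 on the opposite strand (mean 2298), cannot be told apart with certainty.

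By domain, no partner of Dlk1 other than Dio3 was called without the block. Rian, a maternally expressed RNA next to Meg3, had a log2 difference of -0.16 (adjusted p = 0.0745, and 0.00333 with the block), close to that of Meg3. In the Peg3 domain Zim1 had -0.26 and was called with the block only (adjusted p = 0.713 and 0.00162), like Peg3. Copg2, beside Mest, had -0.24 with an adjusted p of 0.171, and 0.000175 with the block. Kcnq1ot1, the non-coding RNA of the Cdkn1c domain, had 0.14 (adjusted p = 0.467).

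Among 34 imprinted genes of other domains, 32 were tested, and aldosterone called 2 higher, Asb4 (0.87) and Ampd3 (0.74), and 2 lower, Htr2a (-0.60) and Slc38a4 (-0.27, an amino acid transporter). The background was 5.68% of all genes higher and 4.74% lower. The median log2 difference of the 32 was -0.08. Between sample numbers the background was 10.9%, with 5.07% higher. There 6 of the 32 were called higher and 5 lower, with a median of 0.01. The listed domain partners, with those of the Cdkn1c domain, had 9 higher and 1 lower of 30. The 8 members called between sample numbers were all higher.

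Partners of IGF2 in signalling had 6 called higher and 2 lower of 17 tested with aldosterone (background 5.68% and 4.74%), at a median of 0.07. Higher were Igfbp7 (0.34) and the binding proteins Igfbp3 (1.02) and Igfbp6 (0.87), which hold insulin-like growth factors outside the cell. So were the protease Pappa2 (0.72), the receptor adaptor Irs2 (0.68) and the RNA-binding protein Igf2bp2 (0.21). Lower were Igfbp4 (-0.30) and its protease Pappa (-0.36). Between sample numbers 5 were higher and 5 lower, among them Igfbp5, at 8604 to 12873 normalized counts in sample number 1 and 18438 to 27618 in sample number 2 (log2 difference 1.01, limma, adjusted p = 1.51e-12).

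Factors of the PLAG family and of imprint maintenance had 0 called higher and 8 lower of 15 with aldosterone (background 5.68% and 4.74%), at a median of -0.23. Uhrf1 (-0.75) and Dnmt1 (-0.34), which copy DNA methylation after replication, Dnmt3a (-0.42), a de novo methyltransferase, and Tet1 (-0.53) and Tet3 (-0.25), which oxidize methylated bases, were among them. Smchd1 (-0.23), Ctcf (-0.19), which binds the control region between H19 and Igf2, and Trim28 (-0.18) were the others. DNA methylation was not measured. Plag1, a relative of Plagl1, was not called (0.20, adjusted p = 0.424, and 0.0259 with the block).

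Genes whose pattern was most like that of a member were sought by Pearson's r of log2(normalized count + 1) over the 12 libraries. The 11206 candidates had a mean normalized count of 100 or more. These libraries share 2 sample numbers and 3 treatments, so r describes those steps and carries no p. Zim1 was the gene most like Peg3 (r = 0.996), Col27a1 most like Plagl1 (0.998), Omd most like H19 (0.994) and Col2a1 most like Igf2 (0.981). Mest was closest to Clec11a and Acan (both 0.988), Igf2r to Mrc2 (0.99), Dlk1 to Btbd2 (0.986) and Meg3 to Spaca6 (0.983). For Grb10 and Ndn, the members with no difference called between sample numbers, the leading genes were Iqgap2 (0.966) and mt-Rnr1 (0.958). Among the members, H19 and Igf2 had r = 0.935 over the 12 libraries, Peg3 and Mest 0.933, and Dlk1 and Meg3 0.174, while Igf2r and H19 had -0.07. After removal of the treatment means Igf2r and H19 had 0.854 and Dlk1 and Meg3 0.649.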

How the data were processed

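The authors deposited 3 tables, 1 for each treatment pair, of normalized counts (a signal: reads per gene over a library's size factor), with gene length and other annotation, and with their own fold changes and p-values, which were not used. Per the submitters' notes, HISAT2 (version 2.0.5) and featureCounts (version 1.5.0-p3) were run on mm39, whereas the methods name mm9. Strand use in counting is not given in the sources used here.

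The members and gene lists were chosen with earlier results of these data known. Each table was tested with limma (version 3.58.1, R 4.3.3) after adding 1 and taking log2, with trended prior variance, no filter and Benjamini-Hochberg adjustment over all genes, which understates the fold of low genes. Whole reads were recovered in 22 of 24 columns (100% of values within 0.01 reads). They gave the depth, 19136923 to 30219185 reads per library, and 1 set of size factors for all 12 libraries, used for printed values, levels and sample numbers. Tables leave out genes with at most 1 read.

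Libraries of the same sample number deviated together from their group means (24 pairs, r = 0.134 to 0.283 over 15276 genes), unlike those of the same biological replicate number (mean r = -0.00547), so sample numbers were taken to pair the libraries. This pairing comes from the data. Alternatives were edgeR (version 4.0.16), DESeq2 (version 1.42.0), TMM scaling, a pseudocount of 0.5, a mean of at least 10, all 12 libraries in 1 fit, blocks, single sample numbers and leaving out each library, without genes that had no read in the libraries kept. Summed plates, and edgeR with the block, were added after seeing the data. On simulated counts for aldosterone against vehicle (26988 genes) limma recovered 191 of 200 genes changed by 0.5 on the log2 scale, with 7 false calls. The changed genes had means above 200 and the simulated libraries held no difference between sample numbers. It therefore does not give the recovery for members that differ between sample numbers. Genes of other lists were named where aldosterone against vehicle called them at a mean of at least 10, at most 8 per list by size. Zim1, Usp29, Rian, Copg2, Kcnq1ot1, Igfbp5, Plag1 and the cartilage genes were chosen after their values were seen.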

Additional observations from a re-analysis of the deposited data

How the results depend on the processing

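With aldosterone against vehicle, 3 members were called as reported and 3 under 8 further settings. With the replicate block on sample number 8 were called, as with plates summed and blocked (8) and by edgeR with the block (8), and 5 within sample number 1 only (2550 of 26033 genes in all) and 5 within sample number 2 only (2773 of 26153). Leaving out each library gave 3 to 3. All genes called were 2847 as reported, 4563 with the block and 4602 with plates summed, each of 27319. By edgeR with the block they were 4851 of 15798. Against spironolactone, 2 members were called as reported, 4 by DESeq2 (2749 of 27631 genes), 7 with the block, 7 with plates summed and blocked, 8 by edgeR with the block, 5 within sample number 1 only (1955 of 26383 genes) and 6 within sample number 2 only (2496 of 26314), and 2 to 3 without each library. All genes called were 2454 as reported, 3974 with the block and 4140 with plates summed, each of 27631, and 4118 of 15729 by edgeR with the block. For spironolactone against vehicle, 0 members were called, 1 with the block (Peg3), 0 with plates summed and blocked, 0 by edgeR with the block, and 0 to 0 without each library. All genes called were 0 as reported, 97 with the block, 20 with plates summed and 13 by DESeq2, each of 27598, and 50 of 15569 by edgeR with the block. Sample numbers gave 8 members in every setting and without each library, and the interaction gave 0. The interaction called 4 of 27319 genes as reported, 2 of 27319 with a pseudocount of 0.5, 11 of 15245 with a mean of at least 10 and 12 of 16311 by edgeR. Ndn was no longer called within sample number 1 only (aldosterone against vehicle, adjusted p = 0.0717). Log2 differences that were not called changed sign, and the cause was not tested. For spironolactone against vehicle, Grb10 became 0.0031 with TMM scaling and 0.017 within sample number 2 only, and H19 became -0.013 within sample number 2 only. Fits of treatments without each library had no block, so the sample numbers were then uneven in the group that lost a library. For spironolactone against vehicle, leaving out each library gave -0.11 to 0.15 for H19, -0.33 to 0.088 for Igf2, -0.085 to 0.0036 for Igf2r, -0.37 to 0.032 for Peg3, -0.29 to 0.0025 for Mest, -0.17 to 0.048 for Meg3 and -0.020 to 0.0096 for Grb10. With aldosterone against vehicle it gave -0.039 to 0.19 for Plagl1, and, with no change of sign, -0.43 to -0.0041 for Peg3, 0.10 to 0.49 for Igf2, 0.22 to 0.48 for H19, -0.64 to -0.32 for Mest and -0.25 to -0.07 for Meg3. It gave 0.22 to 0.64 for Igf2, 0.09 to 0.32 for Plagl1, -0.49 to -0.17 for Mest, -0.26 to 0.16 for Peg3 and -0.22 to 0.0034 for Meg3 against spironolactone. For the interaction it gave -0.070 to 0.12 for H19, -0.31 to 0.0061 for Meg3 and -0.031 to 0.035 for Grb10. With TMM scaling the median of all genes moved by less than 0.01 in each comparison. Igf2 had the lowest mean count of the members, and how far depth limits its values was not tested.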
